A study of Mus musculus with 12 samples.

Results

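Ear skin of mice that lack Tlr9 was set against ear skin of mice that carry it, over all 12 arrays of the series. The Tlr9-lacking side held 5 arrays of 2 genotypes, Tlr9-/- and Tlr7-/-Tlr9-/-, and the Tlr9-carrying side held 7 arrays of 3 genotypes, WT, Tlr7-/- and Card14-/-. Each genotype had 1 untreated array. After the skin had been under 62.5 mg of cream with 5% imiquimod (IMQ, a ligand of TLR7) for 4 h there was 1 array each of Tlr9-/-, WT and Tlr7-/-, and 2 each of Tlr7-/-Tlr9-/- and Card14-/-. The 2 sides were therefore 2 against 3 arrays untreated and 3 against 4 arrays after IMQ. The members were chosen by the genotype and treatment in the labels alone, and the question was which genes part the sides in both treatments and where those genes lie relative to Tlr9.

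All groups are labelled C57BL/6J. Every array held 200 ng of RNA from a pool of 6 to 8 mice, so an array stands for a pool and not for a mouse. The age of the mice, a vehicle cream group, the source of each mutant allele and the number of backcrosses are not given in the sources used here. Nothing says whether the repeat arrays of a group came from separate pools, so they were averaged, and p-values measure only the spread between these arrays.

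TLR9 is a receptor of endosomes that binds DNA with unmethylated CpG motifs. In mice it is best known from plasmacytoid dendritic cells and B cells, where it leaves the endoplasmic reticulum with the help of UNC93B1, is cut by cathepsins and signals through MyD88 to IRF7 and NF-kB. Card14, lacking in one Tlr9-carrying genotype, encodes a scaffold of keratinocytes that leads to NF-kB, and TLR7 is an endosomal receptor for single-stranded RNA.

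The arrays were single-colour arrays of 60-base probes. Between 60.1% and 65.7% of the 59305 spots stood well above background, and 0 spots were saturated. Of the probes, 37125 were well above background on at least 2 arrays, and these stood for 24068 genes or transcripts, each read on its brightest probe. Slide 1 held 8 arrays, the untreated ones and those of Tlr9-/-, WT and Tlr7-/- skin after IMQ. Slide 2 held the 4 arrays of Tlr7-/-Tlr9-/- and of Card14-/- skin after IMQ. Arrays stood apart in sex-linked genes. On the untreated Tlr7-/- array the Y-linked Eif2s3y read 2.03, and 10.27 to 11.04 on the 11 other arrays, on the log2 scale. Ddx3y and Uty were low there as well, while Kdm5d, also Y-linked, read 7.23 within the range of the others. Xist, an RNA of the inactive X chromosome, read 1.91 on the Tlr7-/- IMQ array and 4.86 and 4.72 on the Tlr7-/-Tlr9-/- IMQ arrays, and 6.55 to 7.89 on the 9 other arrays. Counts without these arrays or their genotypes are given below.

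The probe of Tlr9 did not separate the sides. Its log2 signal was 10.95 in Tlr9-/- and 11.08 in Tlr7-/-Tlr9-/- untreated skin, against 11.22 in WT, 11.05 in Tlr7-/- and 11.31 in Card14-/- untreated skin. After IMQ it was 11.05 in Tlr9-/- and 11.33 and 11.28 in Tlr7-/-Tlr9-/- skin, against 11.39 in WT, 11.18 in Tlr7-/- and 11.27 and 11.30 in Card14-/- skin. The sides overlapped in both treatments, and the difference was -0.14 with a standard error of 0.09 (limma, adjusted p = 0.97). The sources used here do not say whether this probe lies in the deleted part of the gene, so it checks nothing, and the sides rest on the labels. The probe of Tlr7 read 4.03 to 5.85 on the 5 arrays labelled as lacking Tlr7 and 7.36 to 8.12 on the 7 others. The probe of Card14 read 9.63 to 9.89 on the 3 arrays labelled as lacking Card14 and 10.82 to 11.65 on the 9 others. These probes separated their labelled genotypes without overlap. Card14 also parted the sides in both treatments, higher in Tlr9-lacking skin, with gaps of 0.17 untreated and 0.18 after IMQ. Its difference was 0.78 ± 0.35 (SE; limma, adjusted p = 0.97). The Tlr9-carrying side holds the Card14-/- arrays.

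A short list of genes differed between the sides, and most of them were on chromosome 9, which carries Tlr9. The side difference was fitted with limma on 10 values, 1 per genotype and treatment, with treatment as a covariate and genotype as a random block. It is given throughout as Tlr9-lacking minus Tlr9-carrying on the log2 scale. Genes with an adjusted p under 0.05, by the Benjamini-Hochberg method over all 24068 genes, are named as called. By this rule 24 genes were called, which is 0.0997% of those tested: 5 were higher in Tlr9-lacking skin (0.0208%) and 19 lower (0.0789%). At a difference of at least 1 there were 15 (0.0623%), 2 higher (0.00831%) and 13 lower (0.054%). At an unadjusted p under 0.05 there were 1245 genes (5.17%). With 1 mean per genotype, which compares 2 genotypes with 3 and leaves 3 residual degrees of freedom, 6 genes were called (0.0249%), among them Abhd14b, Tmem25, C130081A10Rik, BC049987 and ENSMUST00000091759. Without the untreated Tlr7-/- array 15 genes were called, without both Tlr7-/- arrays 8, and without the Tlr7-/-Tlr9-/- arrays 18.

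A second reading used no model. A gene was said to part the sides in both treatments if every Tlr9-lacking array lay above, or every one below, all Tlr9-carrying arrays among the untreated arrays and, in the same direction, among the IMQ arrays. This held for 426 genes, 1.77% of all, with 242 higher in Tlr9-lacking skin (1.01%) and 184 lower (0.765%). With a gap of over 0.5 between the sides in both treatments it held for 24 genes (0.0997%), 6 higher (0.0249%) and 18 lower (0.0748%). Among untreated arrays alone 5685 genes did not overlap (23.6%) and among IMQ arrays alone 1788 (7.43%). By their measured values all 24 called genes parted the sides in both treatments, and 18 of them did so with a gap of over 0.5. For 14 of the 426 genes, among them the called Hyal3 and BC049987, the closest arrays of the 2 sides in a treatment both read below the lowest signal well above background, where values have no order. These genes cannot be said to part the sides in that treatment. Hyal3, BC049987 and BB115448 passed the filter through Tlr9-carrying arrays only. With only probes well above background on all 12 arrays, 21 genes were called, 15 of them on chromosome 9. Of these 21, 20 were among the 24.

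The genes that parted the sides lay on chromosome 9 more often than on any other assembled chromosome. Of the 1238 measured genes of chromosome 9, 105 parted the sides in both treatments (8.48%), 50 of them higher in Tlr9-lacking skin and 55 lower. On the 19 other chromosomes from 1 to 19 and X the share ran between 0.789% on chromosome 18 and 1.94% on chromosome 19, with a median of 1.39%. Of the called genes 17 were on chromosome 9, which is 1.37% of the 1237 genes measured there beside Tlr9, and 6 were among the 22727 genes of all other places (0.0264%). The remaining one, Nckipsd, was read on a probe without a coordinate. It is not among the 17, though its other probes lie on chromosome 9. Genes of 1 chromosome are not independent of each other, and these shares carry no test.

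**Figure D1:**
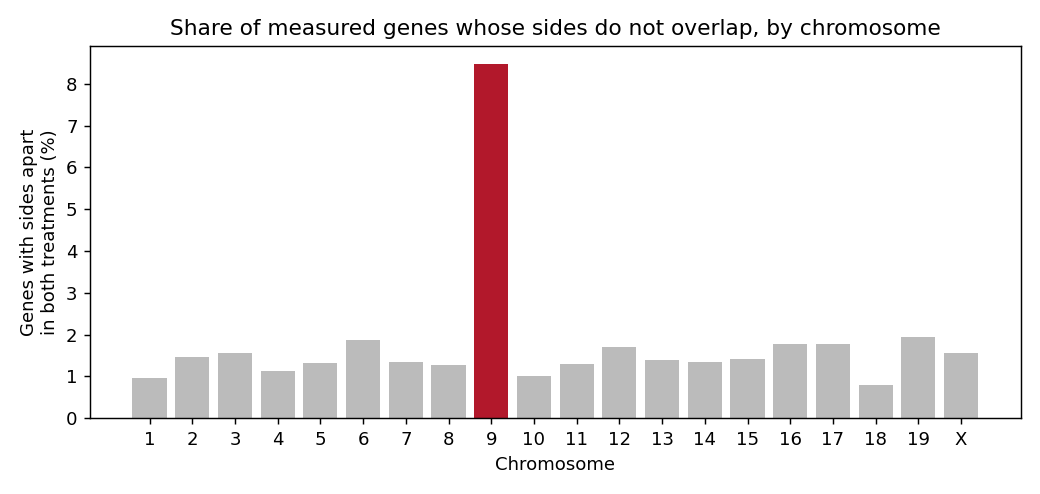
Share of measured genes, in percent, whose Tlr9-lacking and Tlr9-carrying arrays do not overlap in either treatment and lie in the same order in both, for each chromosome (horizontal axis). Chromosome 9, in red, stands at 8.48%, and all others lie between 0.789% and 1.94%.

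Chromosome 9 also stood apart when genes were picked on the untreated arrays and read on the IMQ arrays. A gap of at least 1 between the untreated sides was found for 12 genes of chromosome 9, and 11 of them parted the IMQ arrays in the same direction (91.7%). Elsewhere 13 genes had such a gap and 4 of them parted the IMQ arrays in that direction (30.8%). The sides did not overlap among IMQ arrays, in any direction, for 14.4% of all genes of chromosome 9 and for 7.05% of the others. Each Tlr9-lacking genotype on its own gave the same order. Tlr9-/- arrays alone were apart from all Tlr9-carrying arrays in both treatments for 25.1% of chromosome 9 genes and 15.8% of the others. Tlr7-/-Tlr9-/- arrays alone were so for 16.5% of chromosome 9 genes and 7.88% of the others.

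Among the distance zones counted on chromosome 9, the share of genes that parted the sides was highest within 1 Mb of Tlr9. Most of the parting genes lay farther off, spread over a long stretch. Measured genes of the chromosome lay between 103.1 Mb before Tlr9 and 17.9 Mb after it, in the coordinates of build mm9. Within 1 Mb of Tlr9, 11 of 33 genes parted the sides (33.3%), and over 1 to 5 Mb away 12 of 143 did (8.39%). Over 5 to 10 Mb away there were 8 of 105 (7.62%), over 10 to 20 Mb away 5 of 172 (2.91%), and on the rest of the chromosome 69 of 784 (8.8%). Beyond 1 Mb, no zone thus had a higher share than the rest of the chromosome. In equal bins of 5 Mb the highest shares were 17.9% and 18.8%, in the adjoining bins that start 65 Mb before Tlr9. The bins next to Tlr9 held 15.4% before it and 12.3% after it. Read along the chromosome, 5 of 281 genes parted the sides more than 65 Mb before Tlr9 (1.78%), which is close to the share over all genes. Between 65 Mb before and 10 Mb after Tlr9 there were 97 of 860 (11.3%), and farther out 3 of 97 (3.09%). These 2 limits were set after the values were seen and describe the pattern only.

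The called genes stood in 2 clusters with 1 gene between them, within limits that were set after the values were seen. In the far cluster 9 called genes lay 50 to 65 Mb before Tlr9, in the order ENSMUST00000193396, C030014I23Rik, BC049987, Tmem25, Apoc3, C130081A10Rik, Atm, Tnfaip8l3 and Chrnb4. A further 7 lay within 6 Mb of Tlr9, among them LOC102641261, Abhd14a, Abhd14b, Hyal3 and Nme6. Bckdhb lay between them, 22.1 Mb before Tlr9. From 65 to 50 Mb before Tlr9, bins of 5 Mb held 95, 48 and 56 measured genes, of which 5, 1 and 3 were called. Genes that parted the sides ran on for part of the way between the clusters. They made up 6.1% to 15% of each such bin from 50 to 20 Mb before Tlr9. In the next bins toward Tlr9 they were 2 of 48 genes (4.17%) and then 0 of 27. The parting genes thus thinned out before the near cluster too. All 7 near genes were lower in Tlr9-lacking skin. The far cluster held 4 genes that were higher and 5 that were lower.

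**Figure D2:**
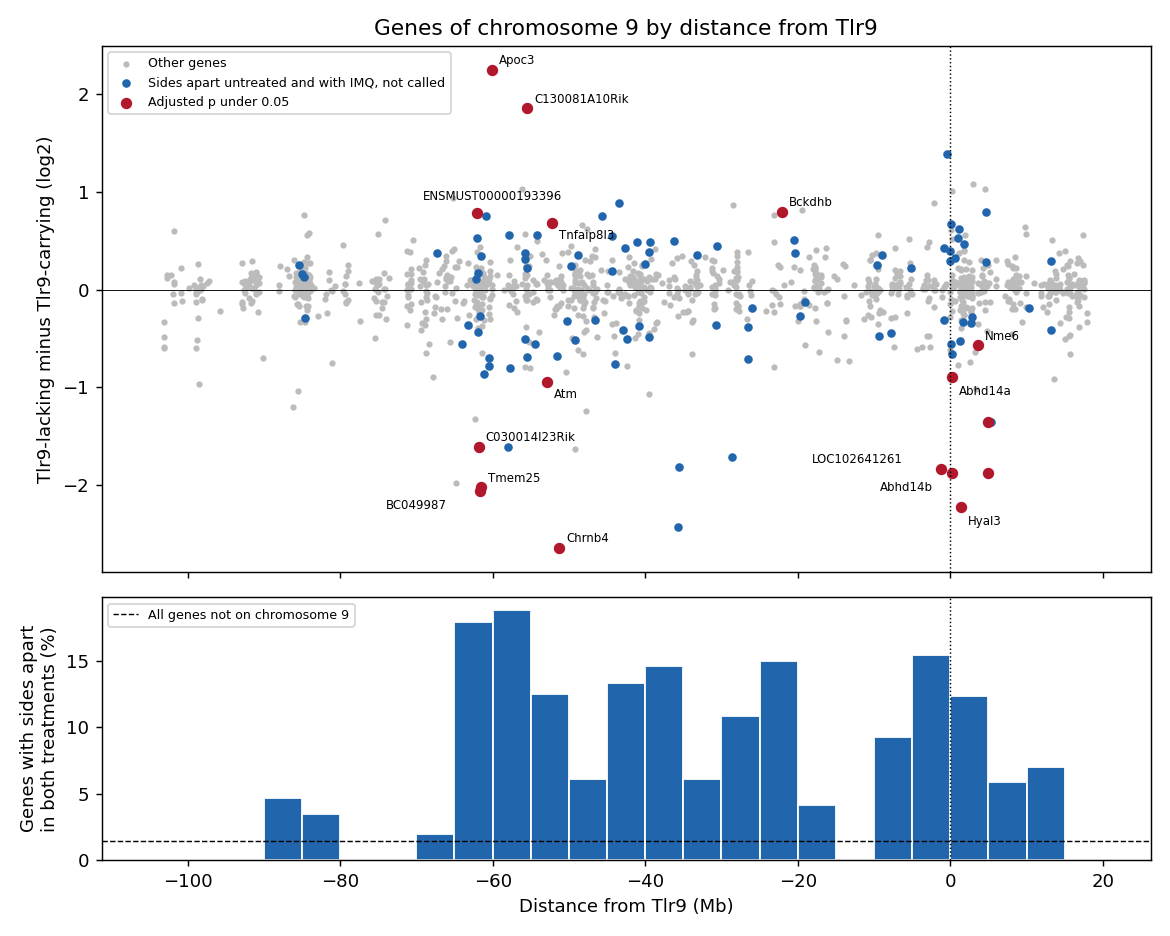
The upper panel plots the log2 difference, Tlr9-lacking minus Tlr9-carrying, of each measured gene of chromosome 9 against its distance from Tlr9 in Mb (dotted line). Called genes are red, most of them named, and genes that part the sides in both treatments without being called are blue. The lower panel gives the share of such parting genes, called ones included, in bins of 5 Mb, with the 1.41% of all genes not on chromosome 9 as a dashed line. Parting genes are few more than 65 Mb before Tlr9 and run on from there to 15 Mb after it, except in the bin 10 to 15 Mb before it.

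Abhd14b had the smallest adjusted p of the genes near Tlr9. It encodes a small serine hydrolase of the alpha/beta-hydrolase family, and its probe lies at chr9:106355187-106355246 (mm9, + strand), 0.23 Mb after Tlr9. In untreated skin it read 10.89 in Tlr9-/- and 10.58 in Tlr7-/-Tlr9-/-, against 12.57 in WT, 12.66 in Tlr7-/- and 12.72 in Card14-/-. After IMQ it read 10.53 in Tlr9-/- and 10.52 and 10.39 in Tlr7-/-Tlr9-/-, against 12.30 in WT, 12.36 in Tlr7-/- and 12.36 and 12.32 in Card14-/-. All 5 Tlr9-lacking arrays lay below all 7 others, with a gap of at least 1.68 in each treatment. The difference was -1.88 with a standard error of 0.08, or 3.67-fold lower (limma, adjusted p = 2.49e-05; 0.0425 with 1 mean per genotype).

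Its neighbour Abhd14a, another member of the alpha/beta-hydrolase family, was read 0.21 Mb after Tlr9 and was 1.85-fold lower, with a difference of -0.89 ± 0.08 (SE; limma, adjusted p = 0.00537). Its arrays read 10.16 to 10.55 in Tlr9-lacking skin and 11.10 to 11.35 in Tlr9-carrying skin, without overlap. Its other probe had a difference of -0.92 and parted the sides in both treatments.

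Nme6, of the nucleoside diphosphate kinase family, was read 3.62 Mb after Tlr9 and was 1.48-fold lower, with a difference of -0.57 ± 0.07 (SE; limma, adjusted p = 0.0248). Its 2 other probes above background differed by -0.81 and -0.75, and both parted the sides in both treatments. Nckipsd encodes an SH3-domain protein that binds the adaptor NCK. Its probe without a coordinate was 1.52-fold lower, with a difference of -0.61 ± 0.07 (SE; limma, adjusted p = 0.0165). Its 3 other probes lie on chromosome 9 between those of Hyal3 and Nme6, so its place is in the near cluster, where it was not counted. They differed by -0.58, -0.43 and -0.05, of which the first 2 parted the sides in both treatments.

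Hyal3, of the hyaluronidase family, was read 1.36 Mb after Tlr9 and was not well above background on any of the 5 Tlr9-lacking arrays, and on 3 of the 7 Tlr9-carrying ones. Its measured means were 1.87 in Tlr9-lacking and 4.10 in Tlr9-carrying skin (limma, adjusted p = 0.000255 on the measured values). Against the lowest signal well above background on each array it was 1.05-fold lower. This is no lower bound, as the Tlr9-carrying mean includes arrays below that signal. LOC102641261, 1.16 Mb before Tlr9, was well above background on 1 of 5 Tlr9-lacking and 7 of 7 Tlr9-carrying arrays, with a difference of -1.83 ± 0.23 (SE; limma, adjusted p = 0.0284). For these dim probes the background correction sets the size. With normexp correction the differences were -0.41 for Hyal3, whose call was lost, and -0.45 for LOC102641261.

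The genes next to Tlr9 did not move as a block. Of the genes on either side, Twf2, an actin-binding protein 0.01 Mb before it, differed by 0.29 ± 0.10 (SE) and parted the sides in both treatments. Alas1, the first enzyme of haem synthesis and 0.01 Mb after Tlr9, differed by -0.02 ± 0.08 (SE) and overlapped. Wdr82 lay 0.04 Mb before Tlr9 and differed by 0.40 ± 0.07 (SE), while Dusp7, a MAP kinase phosphatase 0.15 Mb after it, differed by -0.55 ± 0.10 (SE). Both parted the sides in both treatments but were not called (limma, adjusted p = 0.21 and 0.20). Within 1 Mb, 6 of the 11 parting genes were higher in Tlr9-lacking skin and 5 were lower. Col6a5, a collagen VI chain 0.37 Mb before Tlr9, had the largest positive value among the 10 measured genes with a gene name on each side of Tlr9, 1.39 ± 0.31 (SE; limma, adjusted p = 0.42). It read 7.74 and 7.58 in untreated Tlr9-lacking skin, against 5.95, 7.06 and 5.98 in untreated Tlr9-carrying skin.

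In the far cluster Tmem25 and Chrnb4 were lower in Tlr9-lacking skin. Tmem25 encodes a transmembrane protein of the immunoglobulin superfamily and was read at chr9:44601943-44602002 (mm9, - strand), 61.5 Mb before Tlr9. Untreated, it read 5.96 in Tlr9-/- and 6.00 in Tlr7-/-Tlr9-/-, against 8.19 in WT, 8.09 in Tlr7-/- and 8.31 in Card14-/-. With IMQ it read 5.65 in Tlr9-/- and 5.22 and 5.73 in Tlr7-/-Tlr9-/-, against 7.22 in WT, 7.56 in Tlr7-/- and 7.38 and 7.41 in Card14-/-. Both sides read lower after IMQ and stayed apart. The difference was -2.02 ± 0.11 (SE), or 4.06-fold lower (limma, adjusted p = 0.000203; 0.0338 with 1 mean per genotype), and it was -1.27 with normexp correction.

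Chrnb4 encodes the beta 4 subunit of neuronal nicotinic acetylcholine receptors, and its probe lies at chr9:54875985-54876044 (mm9, - strand), 51.3 Mb before Tlr9. Untreated, it read 4.63 in Tlr9-/- and 4.52 in Tlr7-/-Tlr9-/-, against 7.75 in WT, 7.85 in Tlr7-/- and 8.17 in Card14-/-. After IMQ it read 5.43 in Tlr9-/- and 5.37 and 5.19 in Tlr7-/-Tlr9-/-, against 7.16 in WT, 7.09 in Tlr7-/- and 7.59 and 7.61 in Card14-/-. The sides were apart in both treatments and closer after IMQ, with differences of -3.35 untreated and -1.93 after IMQ. The fitted difference was -2.64 ± 0.28 (SE), or 6.24-fold lower (limma, adjusted p = 0.0105; 0.0513 with 1 mean per genotype), and it was -1.40 with normexp correction. Whether its response to IMQ differed between the sides is covered by the response test below.

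Atm, the kinase that signals DNA double-strand breaks, was 1.92-fold lower in Tlr9-lacking skin, with a difference of -0.94 ± 0.10 (SE; limma, adjusted p = 0.00924; 0.37 with 1 mean per genotype). It read 6.52 to 7.02 on the Tlr9-lacking arrays and 7.27 to 8.07 on the Tlr9-carrying arrays. A second probe of Atm differed by -0.96 and parted the sides in both treatments. C030014I23Rik differed by -1.61 ± 0.15 (SE; limma, adjusted p = 0.00639). BC049987 was not well above background on any Tlr9-lacking array and on 4 of 7 Tlr9-carrying arrays. Its measured means were 2.36 in Tlr9-lacking and 4.41 in Tlr9-carrying skin (limma, adjusted p = 0.0205 on the measured values). Against the lowest signal well above background on each array it was 1.31-fold lower, or 0.39 on the log2 scale. This is no lower bound, as the Tlr9-carrying mean includes arrays below that signal. With normexp correction the difference was -0.29, and the call was lost.

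Apoc3 and C130081A10Rik were higher in Tlr9-lacking skin. Apoc3 encodes an apolipoprotein that inhibits lipoprotein lipase and was read at chr9:46041134-46041193 (mm9, - strand), 60.1 Mb before Tlr9. Untreated, it read 7.96 in Tlr9-/- and 8.07 in Tlr7-/-Tlr9-/-, against 6.16 in WT, 5.32 in Tlr7-/- and 5.86 in Card14-/-. With IMQ it read 7.43 in Tlr9-/- and 8.60 and 8.59 in Tlr7-/-Tlr9-/-, against 5.62 in WT, 5.70 in Tlr7-/- and 5.82 and 6.01 in Card14-/-. The difference was 2.25 ± 0.24 (SE), or 4.76-fold higher (limma, adjusted p = 0.0105; 0.249 with 1 mean per genotype), and it was 1.42 with normexp correction. A second probe of Apoc3, well above background on 8 of 12 arrays, was also higher and parted the sides in both treatments. The remaining probe, well above background on all 12 arrays, differed by 0.20 and overlapped in untreated skin. The value of Apoc3 is therefore that of the stretch under 2 of its 3 probes.

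C130081A10Rik was read at chr9:50657724-50657783 (mm9, + strand), 55.5 Mb before Tlr9. Untreated, it read 7.96 in Tlr9-/- and 7.82 in Tlr7-/-Tlr9-/-, against 6.03 in WT, 6.14 in Tlr7-/- and 6.13 in Card14-/-. After IMQ it read 7.45 in Tlr9-/- and 7.82 and 7.77 in Tlr7-/-Tlr9-/-, against 5.75 in WT, 5.87 in Tlr7-/- and 5.44 and 5.54 in Card14-/-. The sides were apart by at least 1.58 in each treatment, and the difference was 1.85 ± 0.11 (SE), or 3.62-fold higher (limma, adjusted p = 0.000211; 0.0425 with 1 mean per genotype). With normexp correction it was 1.19.

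The 3 other genes that were higher moved less. Bckdhb, a subunit of the enzyme that breaks down branched-chain keto acids, was 1.74-fold higher, with a difference of 0.80 ± 0.08 (SE; limma, adjusted p = 0.0105). It read 12.87 to 13.41 in Tlr9-lacking skin and 12.19 to 12.38 in Tlr9-carrying skin, and its second probe differed by 0.76 and was called as well. Tnfaip8l3, of the TNFAIP8 family of lipid-binding proteins, differed by 0.69 ± 0.07 (SE; limma, adjusted p = 0.00639), or by 0.37 with normexp correction, and its second probe by 0.31. ENSMUST00000193396, which the files describe as a predicted gene, differed by 0.79 ± 0.10 (SE; limma, adjusted p = 0.0328). In all, 7 called genes had a further probe well above background on at least 2 arrays. Of these 11 probes, 0 had the opposite sign, 9 parted the sides in both treatments and 3 were called.

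The first 30 bases of probes of 60 bases that gave large differences on chromosome 9 are shown, 5′ to 3′. Each value is that of its whole 60-base probe alone.
Abhd14b: gggagtgggataaggagaggagaccgactt
Tmem25: tactttttaaaaagcaacctgaaaacgact
Chrnb4: gtctccagcccctgagggagaatattttaa
Apoc3: cctccctagatctcacctaaacatgctgtc
C130081A10Rik: cacctccgattcgattccctagttggtagg
A probe's signal depends on the amount of its target and on how well the letters match, and these cannot be told apart from array values.

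**Figure D3:**
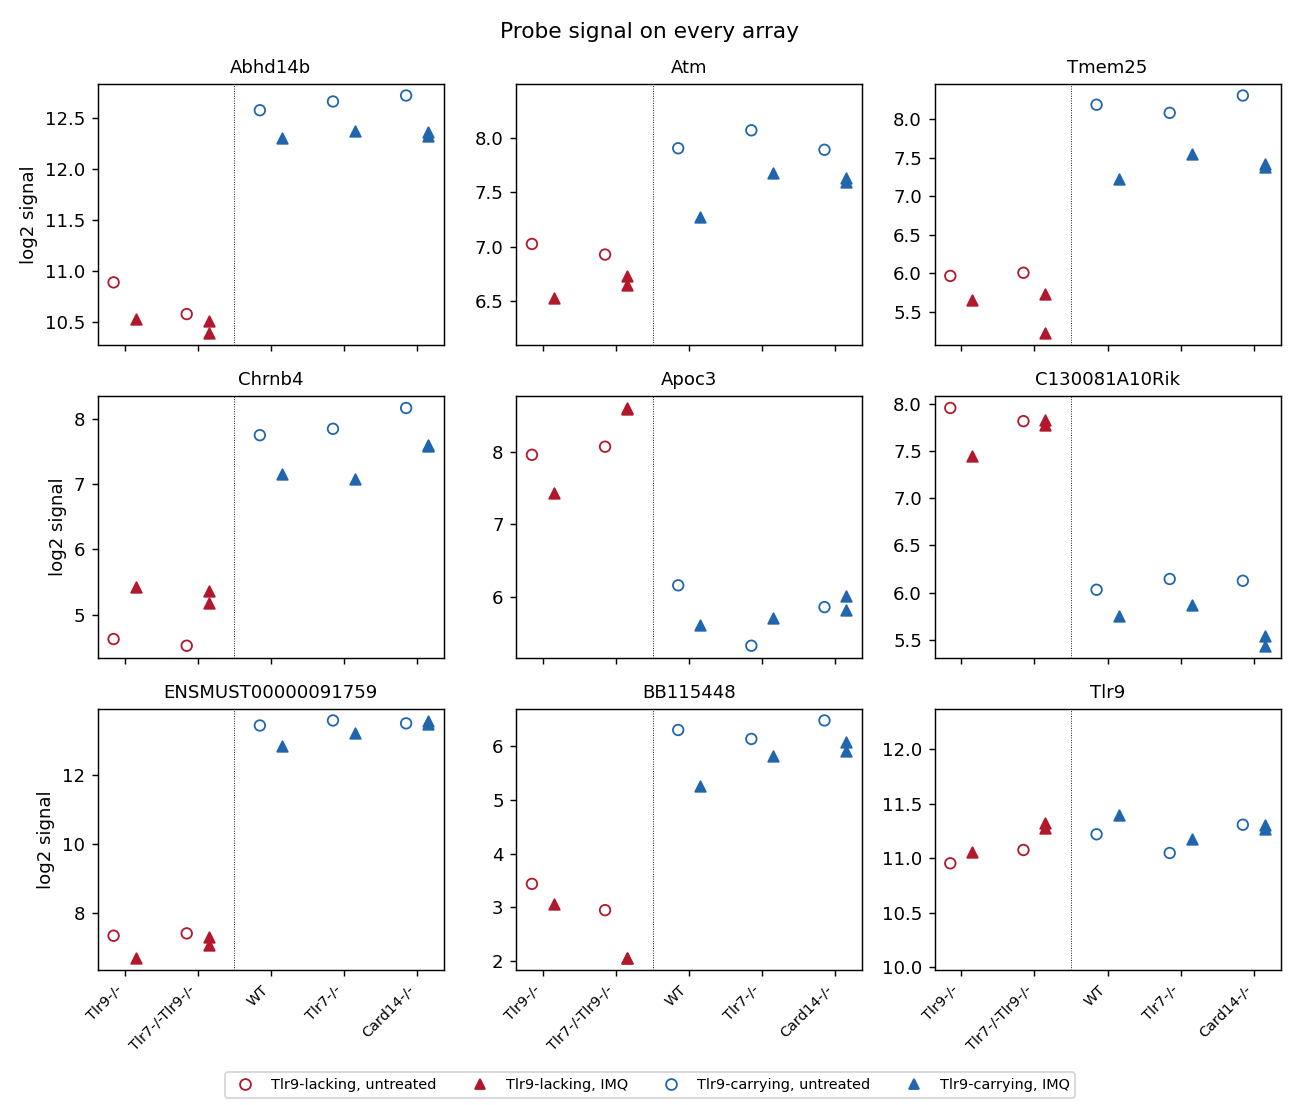
Log2 signal on every array (vertical axis, each panel on its own scale of at least 2.4 units) for 8 called genes and for Tlr9, by genotype. Tlr9-lacking genotypes stand left of the dotted line in red and Tlr9-carrying ones right of it in blue, with open circles for untreated and filled triangles for IMQ arrays. The sides are apart in all 8 called genes and overlap for Tlr9.

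Outside chromosome 9 the largest difference of all belonged to ENSMUST00000091759, which the files describe as a predicted gene and place at chr16:15217318-15217377 (mm9, - strand). Untreated, it read 7.34 in Tlr9-/- and 7.40 in Tlr7-/-Tlr9-/-, against 13.44 in WT, 13.59 in Tlr7-/- and 13.51 in Card14-/-. In IMQ-treated skin it read 6.68 in Tlr9-/- and 7.30 and 7.07 in Tlr7-/-Tlr9-/-, against 12.86 in WT, 13.23 in Tlr7-/- and 13.57 and 13.49 in Card14-/-. It was well above background on all 12 arrays, and the gap between the sides was at least 5.56 in each treatment. The difference was -6.21 ± 0.15 (SE), or 73.9-fold lower (limma, adjusted p = 3.67e-07; 0.00471 with 1 mean per genotype). BB115448, placed on a fragment not assigned to a chromosome, was not well above background on any of the 5 Tlr9-lacking arrays and was above it on all 7 others. Its measured means were 2.88 in Tlr9-lacking and 6.00 in Tlr9-carrying skin, and on this scale it was at least 3.93-fold lower (limma, adjusted p = 0.00088). The background correction sets this size: the difference was -0.85 with normexp correction and -1.38 in the authors' deposited table, both smaller than that bound and both called.

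The 5 called probes with a coordinate on other named chromosomes were bright, were all lower in Tlr9-lacking skin, and shared letters with each other or with further probes of the array. Beside ENSMUST00000091759 they were NAP058263-1 on chromosome 8 with a difference of -1.33 ± 0.13, NAP093832-001 on chromosome 16 with -1.06 ± 0.08, NAP093810-001 on chromosome 12 with -0.56 ± 0.06 and ENSMUST00000117685 on chromosome 13 with -0.50 ± 0.06 (SE; limma, adjusted p = 0.00639, 0.0015, 0.0145 and 0.018). Each of the 5 held a run of at least 16 bases in common with another probe, 4 of them with another called probe and 2 with the probe of Rpl29. How often probes of the whole array hold such a run was not counted. The runs with Rpl29 were not the longest. NAP093810-001 shared 33 bases with TC1726791 on chromosome 2, which differed by -0.18. NAP093832-001 shared 24 bases with NAP093821-001 on chromosome 8, which differed by 0.19. Neither of these further probes was called. Rpl29 encodes a protein of the large ribosomal subunit and lies on chromosome 9, with its probe at chr9:106333778-106333836 (mm9, + strand), 0.20 Mb after Tlr9.

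The shared run is in capitals in the lines that follow, each a stretch of 30 bases of a probe, 5′ to 3′. The first 2 belong to the pair of called probes with the largest differences among those 5, and the next 3 to 2 called probes and Rpl29.
ENSMUST00000091759: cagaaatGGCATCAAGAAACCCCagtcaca
NAP058263-1: cagaaacGGCATCAAGAAACCCCggtcgca
NAP093832-001: gctccttCCAGTGTGAAGACAGAtggactg
NAP093810-001: gctcctgCCAGTGTGAAGACAGAgggactg
Rpl29: actcctgCCAGTGTGAAGACAGAcggactg
Laid over each other with an offset of 2 bases, the probes of ENSMUST00000091759 and NAP058263-1 had 58 bases in common positions and differed in 6 of them: T13C, A30G, A34G, G42A, C43T and C44G, counted from 1 at the 5′ end of the ENSMUST00000091759 probe. NAP058263-1 was the brighter, at 13.36 to 13.89 in Tlr9-lacking and 14.69 to 15.28 in Tlr9-carrying skin. The probe of NAP093810-001 shared a run of 22 bases with that of Rpl29. The probe of Rpl29 itself read 17.23 to 17.54 in Tlr9-lacking and 17.13 to 17.43 in Tlr9-carrying skin and overlapped after IMQ, with a difference of 0.10 ± 0.07 (SE; limma, adjusted p = 0.97). Which transcripts these 5 probes bound was not tested, so their place on other chromosomes is that of the files' annotation only.

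The genes that parted the sides in both treatments with a gap of over 0.5 but were not called numbered 6. They were Klhl31, Nxpe4 and Stac on chromosome 9, all lower, and Spem2, Tmem45a2 and ENSMUST00000171662 elsewhere. Klhl31, a kelch-like protein of muscle 28.6 Mb before Tlr9, differed by -1.71 ± 0.34 (SE; limma, adjusted p = 0.31). Stac, 5.34 Mb after Tlr9, differed by -1.36 ± 0.26 (SE; limma, adjusted p = 0.26). ENSMUST00000171662 on chromosome 17 had the largest positive difference of the 6, 2.17 ± 0.40 (SE; limma, adjusted p = 0.22).

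The response to IMQ, IMQ minus untreated, was compared between the 2 Tlr9-lacking and the 3 Tlr9-carrying genotypes with limma on 5 differences, which leaves 3 residual degrees of freedom. By it 0 genes were called (0%), and the smallest adjusted p was 1, while 410 genes had an unadjusted p under 0.05 (1.7%). For Chrnb4 the adjusted p of the response difference was 1 too, so it was not called, which does not show that its responses were equal. Its response was 0.80 in Tlr9-/- and 0.75 in Tlr7-/-Tlr9-/- skin, against -0.59 in WT, -0.76 in Tlr7-/- and -0.57 in Card14-/- skin. The sign was thus opposite between the sides, and the difference was 1.42 ± 0.15 (SE; limma, unadjusted p = 0.000305).

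The genes with the largest response differences varied widely within the sides. Papolb, a poly(A) polymerase of the testis, had responses of -1.13 in Tlr9-/- and -4.07 in Tlr7-/-Tlr9-/-, against 2.94 in WT, 1.67 in Tlr7-/- and 0.88 in Card14-/- skin, a difference of -4.43 ± 1.07 (SE; limma, adjusted p = 1). Krt71 and Krt25, keratins of the inner root sheath of the hair follicle, had response differences of -4.60 and -3.50, with standard errors of 3.04 and 3.02. The response of Krt71 was -4.81 in Tlr9-/- and -7.23 in Tlr7-/-Tlr9-/-, against 1.33 in WT, -7.21 in Tlr7-/- and 1.61 in Card14-/- skin, so the Tlr7-/- response lay with the Tlr9-lacking ones. Defb8, a beta-defensin, and S100a7l2 followed with -3.80 and -3.46. The largest positive value was 3.38 ± 1.79 (SE) for Prl3a1, which came from a response of 4.48 in Tlr9-/- and -0.01 in Tlr7-/-Tlr9-/-, against 0.02 in WT, 0.03 in Tlr7-/- and -3.49 in Card14-/-. Olfr1245, Slco1a1, Epha6 and Cypt1 had values of 2.70, 2.61, 2.53 and 2.49.

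**Figure D4:**
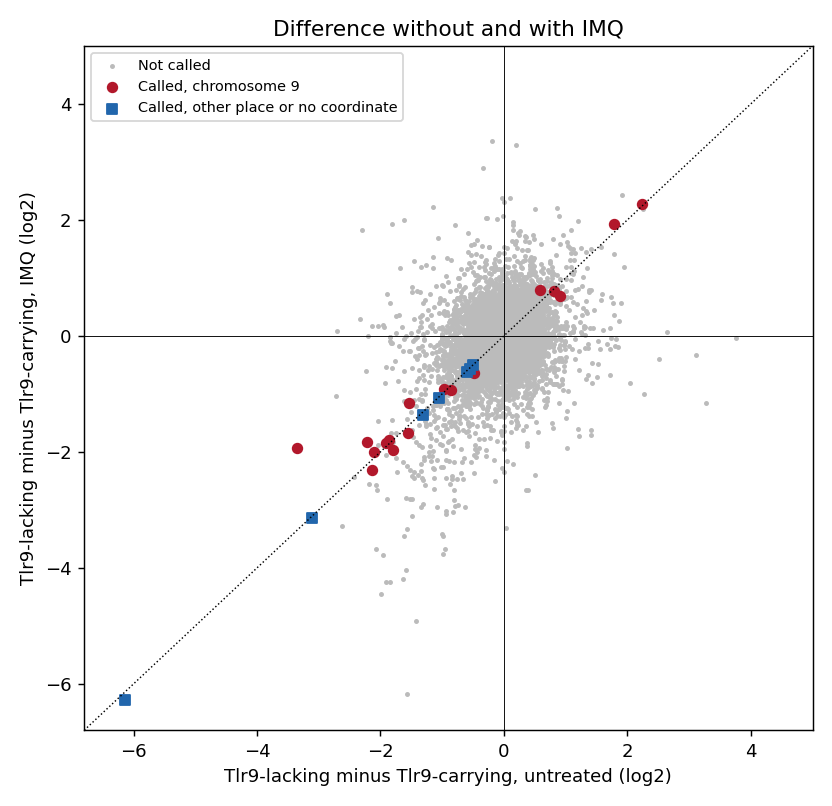
Each point is a gene, with its log2 difference, Tlr9-lacking minus Tlr9-carrying, in untreated skin on the horizontal axis and after IMQ on the vertical axis. Called genes of chromosome 9 are red circles, called genes elsewhere or without a coordinate are blue squares, and grey points are genes that were not called. Most called genes lie near the dotted line of equal differences, which calling on 1 difference over both treatments favours. Chrnb4 lies off it, at -3.35 untreated and -1.93 after IMQ.

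The TLR9 pathway was read without Tlr9 itself. Of 54 measured receptors, trafficking and cleavage factors, adaptors, kinases and transcription factors, 0 were called (beside 0.0997% of all genes) and 0 parted the sides in both treatments (beside 1.77%). At those shares a list of this length would hold few or none, so the counts say little about the pathway. There were 26 positive and 28 negative values, with a median of -0.0078, beside 0.02 for all genes. Unc93b1, which carries TLR9 to the endosome, differed by -0.12 ± 0.13 (SE). Myd88, the adaptor, lies on chromosome 9, 13.1 Mb after Tlr9, and differed by 0.05 ± 0.09 (SE). Irf7, which drives type I interferon genes, differed by -0.40 ± 0.33 (SE), and Ctsk, a cathepsin, had the lowest value of the 54, -0.68 ± 0.24 (SE; limma, adjusted p = 0.95). Of 14 plasmacytoid dendritic cell and B cell markers and 38 interferon-stimulated genes 0 were called, to be read against the same background. The markers had a median of -0.06. The interferon-stimulated genes had 33 negative values of 38, a median of -0.28 and a range of -1.05 to 0.48. After IMQ their median log2 signal was 9.52 in Tlr9-/- and 8.57 and 8.72 in Tlr7-/-Tlr9-/-, against 10.73 in WT, 8.48 in Tlr7-/- and 9.99 and 9.99 in Card14-/-. The arrays that lack Tlr7 were the low ones, and the sides overlapped.

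Lists of cell types and programmes were read the same way. In whole skin, fewer cells of a type and less RNA per cell cannot be told apart. Over all lists, the sex-linked genes left out, 375 genes were measured, of which 0 were called, 37 had an unadjusted p under 0.05, and 14 parted the sides in both treatments (3.73%, beside 1.77% of all genes). The 14 were Cd5, Mmp9, Krt1, Comp, Mki67 and Cdc20, with positive values, and Krt73, Mitf, Sox10, Cdh5, Hba-a1, Hba-a2, Slc4a1 and Tsc22d3, with negative ones. None of them had a gap of over 0.5 in both treatments. Signed as the differences, the smaller gap was -0.0096 for Mitf, -0.0125 for Sox10, -0.0232 for Tsc22d3, 0.0176 for Cdc20 and 0.041 for Comp. These are smaller in size than the median SD between repeat arrays, 0.0472.

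The lowest list median was that of 22 hair follicle genes, -1.82, with 20 negative values and a range of -3.87 to 0.17. Krt73, an inner root sheath keratin and 1 of the 14, was well above background on 2 of 5 Tlr9-lacking and 6 of 7 Tlr9-carrying arrays (limma, adjusted p = 0.95). After IMQ its order rests on 2.75 in Tlr9-/- against 3.06 in Tlr7-/-, both below the lowest signal well above background (4.13 and 4.14), so it cannot be said to part the sides there. The median log2 signal of the list was 10.49 in Tlr9-/- and 8.83 in Tlr7-/-Tlr9-/- untreated skin, against 10.10 in WT, 11.95 in Tlr7-/- and 10.19 in Card14-/- untreated skin. After IMQ it was 9.28 in Tlr9-/- and 6.80 and 6.88 in Tlr7-/-Tlr9-/-, against 11.37 in WT, 7.64 in Tlr7-/- and 12.34 and 12.30 in Card14-/-. The sides overlapped in both treatments, and the IMQ array of Tlr7-/- was low together with those that lack Tlr9. All 10 melanocyte genes had negative values, with a median of -0.51, and 2 of them, Mitf and Sox10, parted the sides in both treatments. In untreated skin both did so by less than the median SD between repeat arrays. The list's median signal overlapped between the sides in both treatments.

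All 8 erythroid genes had negative values, with a median of -0.39, and the alpha-globin genes Hba-a1 and Hba-a2 and the anion exchanger Slc4a1 parted the sides in both treatments. The 2 alpha-globin genes are near-identical copies, so their probes are not independent. All 20 cell cycle genes had positive values, with a median of 0.24 and a range of 0.07 to 0.44, and Mki67 and Cdc20 parted the sides in both treatments. Cdc20 did so by less than the median SD between repeat arrays. The list medians overlapped in both treatments for the erythroid genes and after IMQ for the cell cycle genes. All 12 fibroblast genes had negative values, with a median of -0.32, and 0 parted the sides in both treatments. In untreated skin their median signal was 13.55 in Tlr9-/- and 13.84 in Tlr7-/-Tlr9-/-, against 14.52 in WT, 13.71 in Tlr7-/- and 13.73 in Card14-/-, so the sides overlapped there. After IMQ it was 12.82 in Tlr9-/- and 13.26 and 13.29 in Tlr7-/-Tlr9-/-. The Tlr9-carrying arrays then read 13.63 in WT, 13.52 in Tlr7-/- and 13.64 and 13.63 in Card14-/-, without overlap. This was not particular to fibroblast genes. After IMQ the list medians of the NF-kB early response and Schwann cell genes were also lower on all Tlr9-lacking arrays. Those of the Langerhans and dendritic cell markers were higher on all of them. In untreated skin the medians of these further lists overlapped. None of these genes were called, and members of a list move together across arrays, so the counts of signs describe these arrays only. The part that the makeup of the skin samples had in the called differences was not tested.

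**Figure D5:**
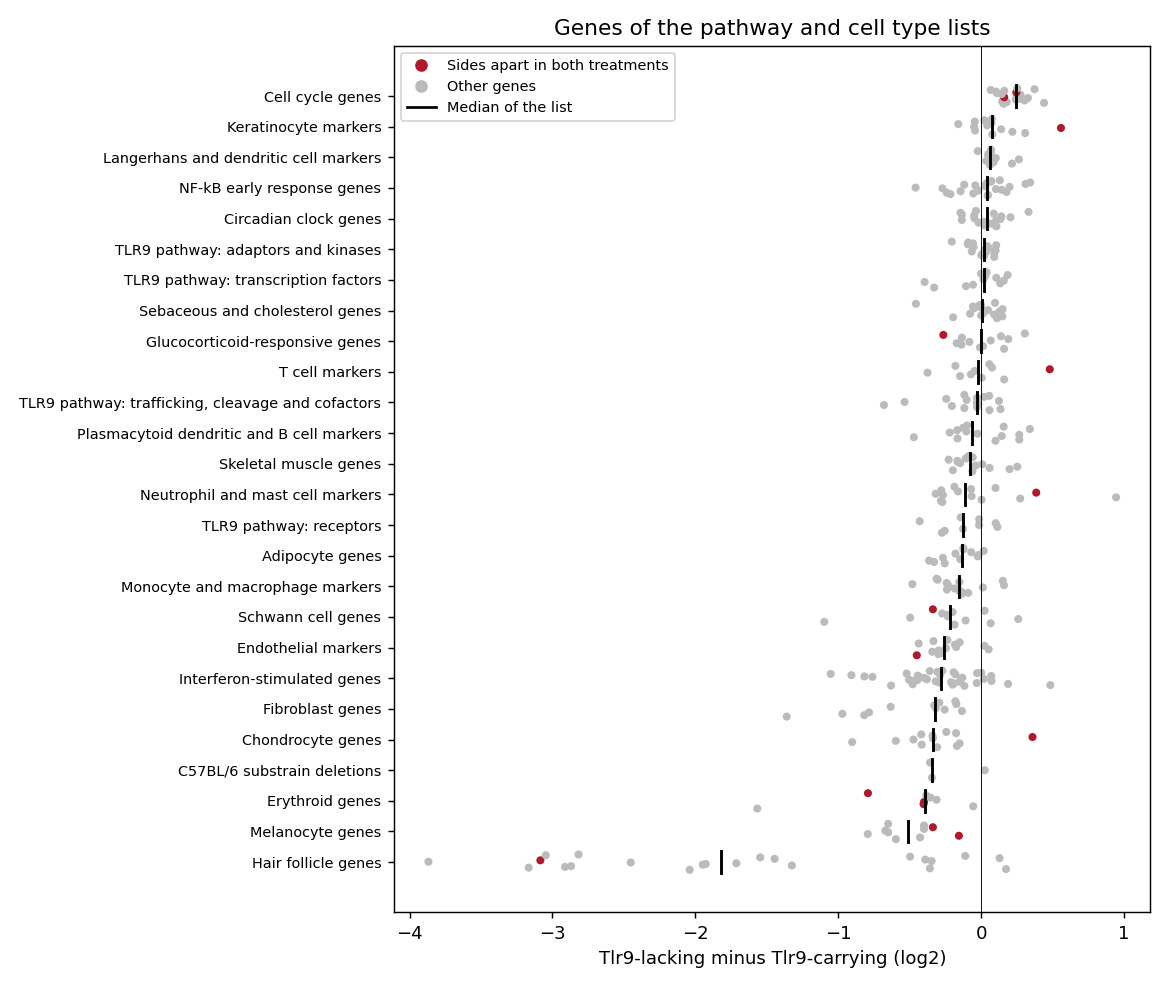
Log2 difference, Tlr9-lacking minus Tlr9-carrying (horizontal axis), of each measured gene of 26 lists, with the sex-linked genes left out. Red points part the sides in both treatments and grey points do not, and the black bar is the median of the list. The hair follicle genes spread farthest, with a median of -1.82, and the lists of the TLR9 pathway stay close to 0.

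Within the slides the sizes of the called differences could be compared, but not their signs, which the parting of the sides fixes. On the 8 arrays of slide 1, 13 of the 24 were called, among 15 called of all 24068 genes. The 4 arrays of slide 2 compare Tlr7-/-Tlr9-/- with Card14-/- after IMQ and have only the spread between repeat arrays as their error. There 21 of the 24 were called, among 1051 called of all 24068 genes. The 24 were picked on these same arrays, so the counts of repeated calls give no separate support. For Abhd14b the difference was -1.87 on slide 1 and -1.89 on slide 2, for Tmem25 -2.05 and -1.92, and for ENSMUST00000091759 -6.22 and -6.35. Apoc3 differed by 2.07 on slide 1 and 2.68 on slide 2.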

How the data were processed

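The raw files, per the file headers, hold spot intensity from Feature Extraction 10.7.3.1, with probe positions on build mm9. The submitters' processing notes name limma and Feature Extraction 10.5.1.1. Per the file headers the signal used had its background subtracted and was detrended within the array. A table of log2 values that the authors deposited served as an alternative only. Flagged spots were left out. Signals were converted to log2, quantile normalized and averaged per probe. A probe had to be well above background on 2 arrays or more, and the brightest such probe stood for its gene. The arrays' lowest log2 signals well above background were 3.63 to 4.38.

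Repeat arrays were averaged, and 10 values were fitted with limma 3.58.1 in R 4.3.3 (lmFit, eBayes) with Tlr9 status and treatment as terms and genotype as a random block (consensus correlation 0.061, 7 residual degrees of freedom). p-values are two-sided with Benjamini-Hochberg adjustment over 24068 genes. No count, mean or share over a list was tested. Distances run between probe centres. In a self-test on 24068 genes with changes of known size, the fit called 38% of genes changed by 0.5, 60% by 1, 90% by 2 and 100% by 4 log2 units, 50 genes each, and 7 unchanged genes.

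Genes were named by a rule on size, distance from Tlr9 and response, passing over clone names, and the clones, ENSMUST, NAP and Rik names given were chosen after their values were seen, as were the 6 uncalled genes with a gap over 0.5, the neighbours of Tlr9 and the list genes. The members and lists were chosen with earlier results of these data known. Some called genes are counted but not reported by name here. Symbols were updated through the reference by accession for 33895 of 56605 probes. Repeat arrays share replicate numbers across groups. Deviations of equal numbers correlated at 0.058, so the numbers do not pair the arrays. Alternatives covered scaling, background correction, the deposited log2 table, the filter, the block, slides and left-out genotypes or arrays. The number of arrays limits the precision. Further software was Python 3.11.15 with numpy 2.4.6, pandas 2.3.3 and matplotlib 3.10.9, and the R package data.table in version 1.17.8.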

Additional observations from a re-analysis of the deposited data

Results flagged for a closer look

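Within a side, single arrays lay far from the others in 5 of 51 tests of the called genes, Tlr9 and Card14 by Dixon's criterion, which flags about 5% of groups by chance. Each side was read over both treatments together. C030014I23Rik read 6.53 on the Tlr9-/- IMQ array, against 7.25 to 7.46 on the other Tlr9-lacking arrays. NAP058263-1 read 13.36 on the Tlr9-/- IMQ array, against 13.86 to 13.89 on the other Tlr9-lacking arrays. It also read 14.69 on the WT IMQ array, against 15.03 to 15.28 on the other Tlr9-carrying arrays. NAP093810-001 read 17.00 on the WT IMQ array, against 17.12 to 17.21 on the other Tlr9-carrying arrays. Hyal3 read 1.84 on the untreated Tlr7-/-Tlr9-/- array, against 1.88 to 1.89 on the other Tlr9-lacking arrays, all below background, where values have no order.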

How the results depend on the processing

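Limits: 2 genotypes with 3, as pools in place of mice, were compared, so Tlr9 and anything else that the 2 Tlr9-lacking genotypes share cannot be told apart. Of 548 values of the 24 called genes under the alternatives, 422 stayed past the threshold and 126 did not. Abhd14b, Tmem25, C130081A10Rik and ENSMUST00000091759 were called in all 23 alternatives run for each.

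Against 24 called genes, of which 15 were large and 17 on chromosome 9, the counts were 6, 6 and 5 with 1 mean per genotype. The count of called genes was 37 with slide as a fixed term, 15 on slide 1 and 1051 on slide 2, with 9 and 95 on chromosome 9 on those slides and 350 large ones on slide 2. Without WT 14 genes were called, without Tlr7-/- 8, without Card14-/- 9, without Tlr9-/- 11 and without Tlr7-/-Tlr9-/- 18, with 8, 6, 5, 7 and 11 on chromosome 9. Large ones numbered 8 without Tlr7-/- and 9 without Card14-/-. Without the untreated Tlr7-/- array, an alternative chosen after seeing the data, 15 genes were called, 11 of them on chromosome 9. Leaving out single repeat arrays gave 23 to 25 called genes. On 12 separate arrays 28 genes were called, and with a replicate block 32. Genes that part the sides numbered 675 without WT, 1148 without Tlr7-/-, 1861 without Card14-/-, 2003 without Tlr9-/-, 3927 without Tlr7-/-Tlr9-/- and 797 without the untreated Tlr7-/- array, as fewer arrays have to be apart. With a gap of over 0.5 they numbered 38 without WT, 44 without Tlr7-/-, 86 without Tlr9-/- and 176 without Tlr7-/-Tlr9-/-, and 15 with normexp correction. In place of called genes, 105 parting genes lay on chromosome 9.

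Tlr9 differed by 0.014 on slide 2 (main value -0.14). Tlr7 differed by 0.0052 on slide 1, 0.14 without WT, 0.068 without Card14-/- and 0.48 without Tlr7-/-Tlr9-/- (main value -0.43), since the sides differ in how many genotypes lack Tlr7. With normexp correction Apoc3 differed by 1.42, C130081A10Rik by 1.19, Tmem25 by -1.27, Tnfaip8l3 by 0.37, BB115448 by -0.85 and BC049987 by -0.29, the last no longer called. In the authors' deposited log2 table BB115448 differed by -1.38, BC049987 by -0.52 (not called), Hyal3 by -0.79 and LOC102641261 by -0.68. Signal near background limits these dim probes. The cause of the other changes was not tested. The response test called 0 genes under every alternative run.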
